A study of Danio rerio with 3 samples.

Results

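Cytokine, chemokine and acute inflammation genes were followed in messenger RNA of whole zebrafish larvae. The set was a list of 36 gene symbols that covers secreted ligands, a receptor family, the transcription factors and inhibitors downstream of them, and effector genes of the acute response. A symbol was matched to the Ensembl identifiers of the deposited tables through a table of gene names, and a name in capitals or without its paralog letter counted. The symbols led to 29 identifiers of the 27882 in the tables, and 26 of these had at least 20 reads over the 3 libraries. The symbols il1b, cxcl8a, il6, saa, hamp and il6st had no matching identifier and were not analysed here. Of the 26 identifiers, 12 carry a capital name. Apart from STAT3 and STEAP4, whose symbols have no paralog letter, these names do not tell paralogs apart. PTGS2 and SOCS3 each stand for 2 identifiers, which are told apart below by their Ensembl numbers. FOS, JUNB, STAT3, CXCL12, ANXA1, ANXA2, STEAP4 and IL1RAPL1 stand for 1 each. Next to the limit of 20 reads, il11a lay just inside with 76 reads over the 3 libraries and il11b just outside with 12.

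All larvae had the AB genetic background and were collected 3 days post fertilization. Control larvae are labelled wild type. Both transgenic groups carried the driver Tg(fli1ep:GAL4FF)ubs3, in which a fli1 promoter active in endothelial cells makes the transcription factor GAL4FF. In HRAS larvae it switched on Tg(UAS:eGFP-HRASV12)io006, an eGFP fusion of the oncogene HRASV12. In NICD larvae it switched on tg(UAS:NICD)kca3, an activated fragment of the receptor Notch. Neither the driver nor a UAS transgene is named for the control, so the driver cannot be told apart from the transgenes in comparisons with it. Each group was 1 library, from which no spread between larvae can be had, and no p-value was computed. The sources used here do not say how many larvae went into a library.

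In acute inflammation, cytokines such as tumour necrosis factor and interleukin 1 bind receptors that free NF-kB from its inhibitor IkB. Cytokines of the interleukin 6 family, interleukin 11 among them, act through the shared receptor gp130 on STAT3, which induces its own inhibitor SOCS3. RAS signalling through ERK induces subunits of the AP-1 transcription factor, FOS and JUNB among them. Chemokines then draw leukocytes to the site, prostaglandin synthases make lipid mediators, and the liver and other tissues release complement and acute phase proteins. In zebrafish larvae of this age these responses are innate, since neutrophils and macrophages are present while adaptive immunity is not yet mature.

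Depth was 26384466 corrected reads for control, 41105619 for HRAS and 21944303 for NICD, where corrected reads are the authors' estimate that adds a share of the reads matching several transcripts to the unique ones. The label of whole larvae was checked on the skin keratin gene krt4, with 288168 to 699269 reads per library, and the liver gene fabp10a, with 553 to 800. Levels are given as CPM, reads scaled to a common library size with TMM factors, or as the deposited RPKM, which is also per length. The size rule called a gene higher or lower when its pair of libraries held at least 50 reads, its ratio was at least 2-fold either way, and the 95% interval of that ratio (Clopper-Pearson, exact, conditional on the pair's reads) excluded 1. The bracketed ranges below are these intervals. They cover counting error only, not the variation between larvae, and reads amplified by PCR, with no molecular identifiers, do not each stand for a separate molecule. HRAS against control and NICD against control use the same control library, so their values are set side by side and not counted as separate evidence.

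In the HRAS library 14 of the 26 genes (53.8%) were called higher than in the control and 0 lower, where 6.09% of all 20873 genes tested were called higher and 4.14% lower. In the NICD library 6 of the 24 genes with enough reads were called higher and 0 lower, against 3.56% and 3.12% of 20061 genes. HRAS against NICD gave 4 of 26 genes (15.4%) higher and 0 lower, against 5.15% and 6.19% of 20856 genes. The median log2 ratio of the 26 genes was 1.09 in HRAS against control, 0.54 in NICD against control and 0.51 in HRAS against NICD, while that of the 23330 genes with at least 20 reads was 0.01, 0.04 and 0.01. The genes were proposed with results of these data known, and a gene with few control reads passes the minimum through the library in which it is high, so these counts describe the list and do not test it. The library of the highest CPM was HRAS for 20 genes, NICD for 4 and the control for 2. The order control, NICD, HRAS from low to high held for 19 genes. Together the 26 genes took up 0.118% of corrected reads for control, 0.249% for HRAS and 0.177% for NICD. RNA of whole larvae cannot tell more cells of a type from more RNA per cell, which holds for every value below, and markers of leukocytes and endothelium differed between the libraries as well.

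**Figure D1:**
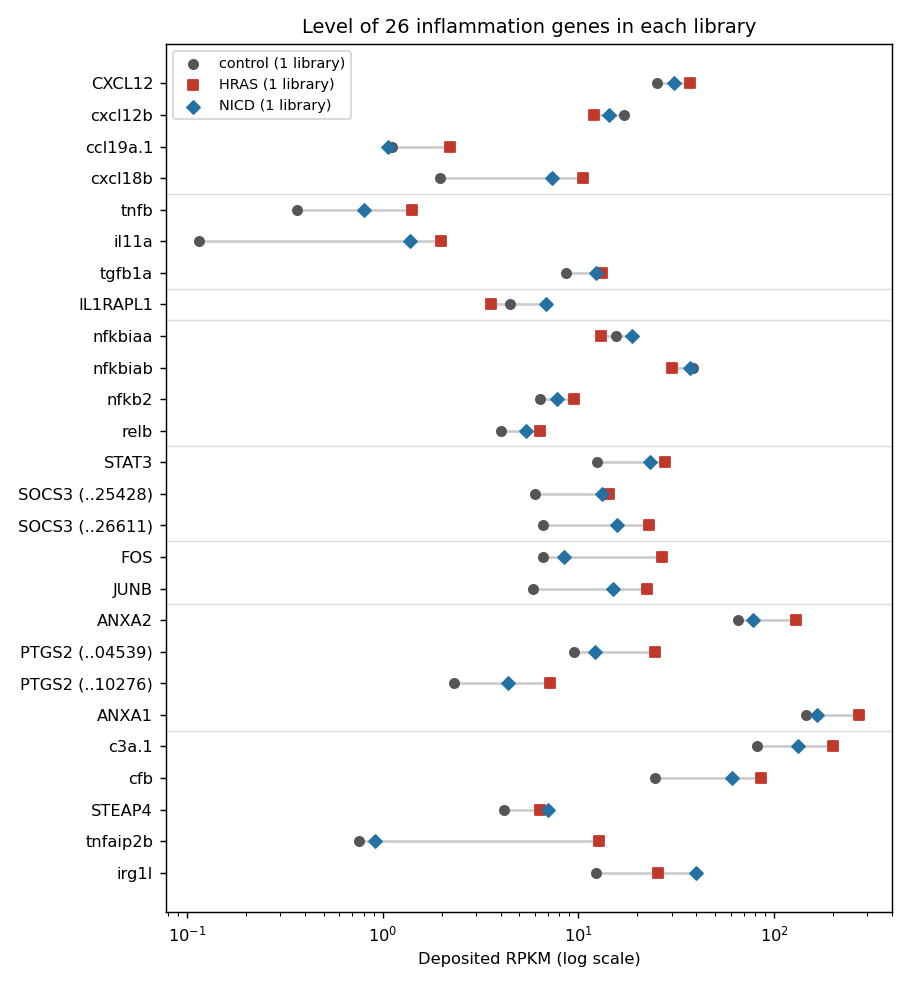
Level of each of the 26 genes as deposited RPKM (reads scaled for transcript length and library size, log axis), 1 point per library, with grey lines joining the lowest and highest library and thin rules separating roles. HRAS is the rightmost point for most genes, while irg1l, STEAP4, IL1RAPL1 and nfkbiaa are highest in NICD and cxcl12b and nfkbiab in the control.

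**Figure D2:**
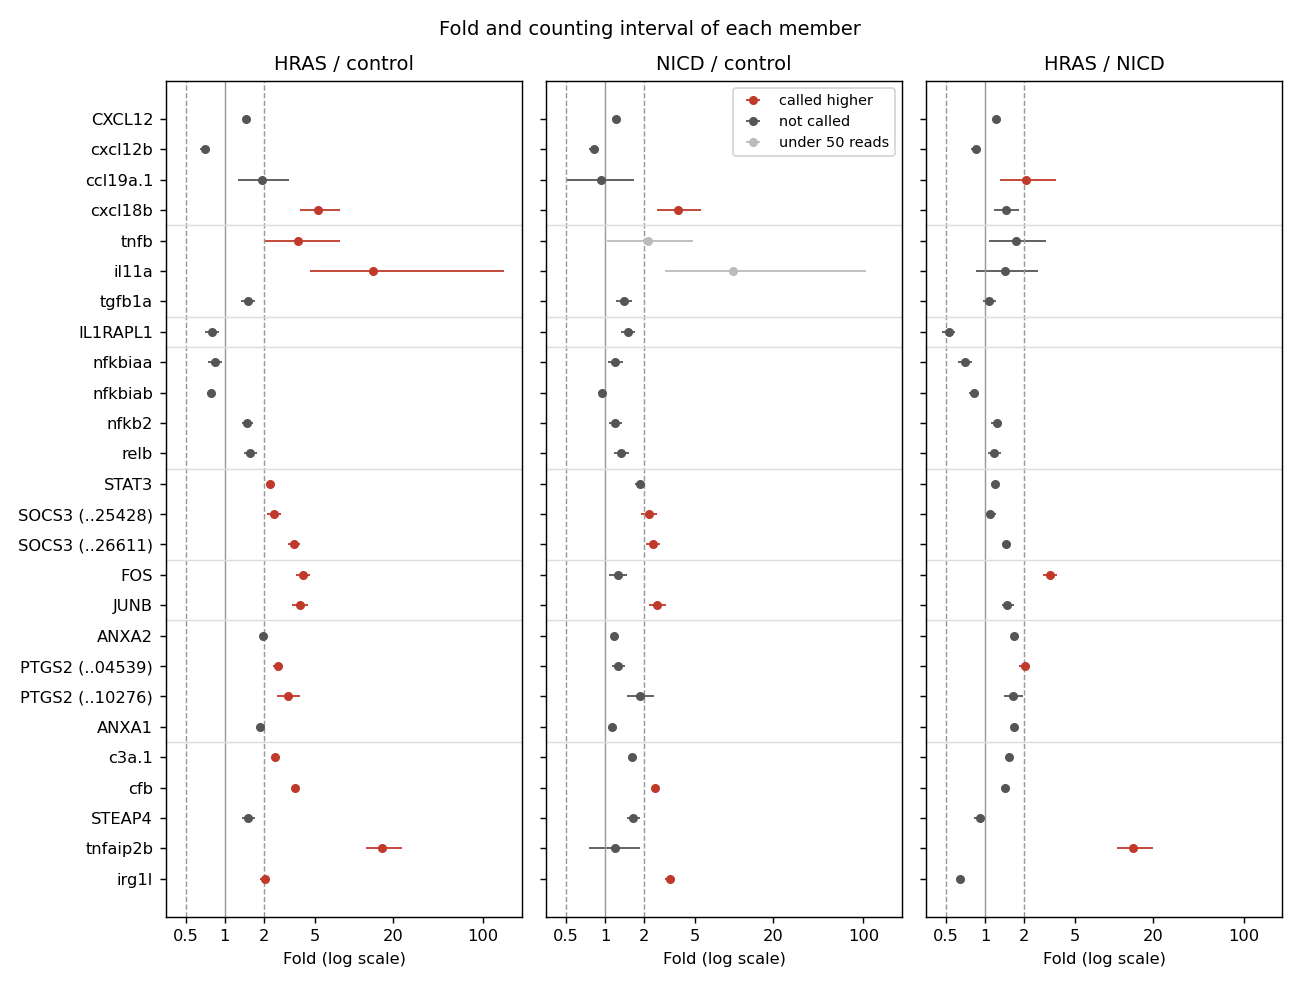
Fold of each gene in the 3 comparisons (log axis), with the exact 95% counting interval as a bar; dashed lines mark 2-fold up and down and the solid line marks no difference. Called genes are red: 14 in HRAS against control, 6 in NICD against control and 4 in HRAS against NICD, and tnfb and il11a are grey in NICD against control because the pair held under 50 reads.

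Among the chemokines, cxcl18b was the one called higher in both transgenic libraries. This chemokine of fish attracts neutrophils. It had 36 reads in control larvae, 303 in HRAS larvae and 112 in NICD larvae, all of them unique, which is 1.37, 7.37 and 5.08 CPM. The transgenic libraries were thus both above the control, and HRAS was the higher. The fold was 5.31 [3.79 to 7.82] in HRAS and 3.66 [2.52 to 5.55] in NICD, and HRAS stood at 1.45 times NICD [1.17 to 1.82], below the 2-fold limit. In HRAS against control 181 of the 20873 genes tested (0.867%) had a ratio as high or higher.

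The other chemokines had ratios nearer to 1. CXCL12, taken by the naming rule for cxcl12a and encoding a ligand of the receptor Cxcr4, had 2011 reads in control larvae, 4635 in HRAS larvae and 2049 in NICD larvae. Its CPM of 76.6, 113 and 92.9 gave folds of 1.47 [1.40 to 1.55] and 1.21 [1.14 to 1.29] against the control, neither called. The other copy, cxcl12b, had 48.9, 34.2 and 40.4 CPM with ratios to control of 0.699 in HRAS [0.648 to 0.755] and 0.827 in NICD [0.759 to 0.902]. The copies thus lay on opposite sides of 1 with intervals that do not overlap, in HRAS and in NICD, although each stayed within 2-fold. The gene ccl19a.1, whose relative CCL19 is a ligand of CCR7 in mammals, had 28 reads in control larvae, 86 in HRAS larvae and 22 in NICD larvae. It was called in HRAS against NICD, at 2.06-fold [1.30 to 3.52], and just missed the limit against the control, at 1.94-fold [1.27 to 3.12].

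Of the cytokines with at least 20 reads, il11a had the largest ratio to the control in both transgenic libraries. It encodes an interleukin 11, a gp130 cytokine, and had 2 reads in control larvae, 54 in HRAS larvae and 20 in NICD larvae. Both transgenic libraries were well above the control, but with 2 control reads the interval of the ratio is wide: 13.9 [4.55 to 146] in HRAS and, on under 50 reads, 9.75 [2.89 to 105] in NICD. HRAS and NICD differed by a fold of 1.43 with an interval of 0.853 to 2.56 that includes 1. The second copy, il11b, had 0, 8 and 4 reads in control, HRAS and NICD larvae and was below the minimum. Set against a floor of 3 control reads, the observed reads gave 1.70-fold in HRAS and 1.59-fold in NICD. The counting interval of the ratio to control began at 1.09 in HRAS and at 0.785, below 1, in NICD.

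The tumour necrosis factor gene tnfb had 12 reads in control larvae, 72 in HRAS larvae and 22 in NICD larvae. It was called higher in HRAS against control, at 3.70-fold [2.06 to 7.75], and on unique reads at 2.99-fold [1.60 to 6.58]. The NICD fold of 2.14 [1.03 to 4.83] rested on under 50 reads and was not tested. The other copy, tnfa, had 0 reads in control larvae, 0 in HRAS larvae and 6 in NICD larvae. For the same floor its NICD reads gave 2.38-fold against the control, and the counting interval began at 1.40. The gene named IL10, an anti-inflammatory cytokine, had 0 reads in all 3 libraries. The floor of 3 reads equals 0.114 CPM in control larvae, 0.073 in HRAS larvae and 0.136 in NICD larvae. The growth factor gene tgfb1a had 13.7 CPM in control larvae, 20.7 in HRAS larvae and 19.2 in NICD larvae, with folds of 1.51 [1.33 to 1.71] and 1.40 [1.21 to 1.62], neither called.

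IL1RAPL1 belongs by sequence to the interleukin 1 receptor family and in mammals is known chiefly for its part in synapses. It had 18.4 CPM in control larvae, 14.6 in HRAS larvae and 27.9 in NICD larvae, and HRAS stood at 0.524 of NICD [0.467 to 0.587], the lowest ratio of any of the 26 genes in that comparison and just short of the 2-fold limit. None of its reads were unique.

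None of the NF-kB factors and inhibitors was called in any comparison. The gene nfkb2, the precursor of p52, had 22.2 CPM in control larvae, 33.0 in HRAS larvae and 26.7 in NICD larvae, and relb, its usual partner, had 15.7, 24.8 and 21.0. Their folds were 1.49 [1.35 to 1.64] and 1.57 [1.40 to 1.77] in HRAS, and 1.2 [1.07 to 1.35] and 1.34 [1.17 to 1.53] in NICD. Only 1.11% of the reads of nfkb2 were unique, and on these its HRAS fold was 0.846 with an interval of 0.332 to 2.30, whereas 99.3% of those of relb were unique.

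The IkB alpha genes, which encode the inhibitors that hold NF-kB in the cytoplasm and are themselves NF-kB targets, were not above the control in HRAS. The nfkbiab level was 52.6 CPM in control larvae, 40.9 in HRAS larvae and 50.1 in NICD larvae, and HRAS stood at 0.777 of the control [0.724 to 0.835]. The other copy, nfkbiaa, had 17.7, 14.8 and 21.2 CPM, and stood at 0.839 of the control in HRAS [0.742 to 0.949] and at 1.2 in NICD [1.05 to 1.37]. On the few unique reads of nfkbiaa the HRAS fold was 1.12, with an interval of 0.553 to 2.45 on either side of 1. With cxcl12b and IL1RAPL1, these copies were the 4 genes whose interval lay below 1 in HRAS against control, and the intervals of the other 22 genes lay above 1.

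The STAT3 and SOCS3 identifiers were all called higher in HRAS, and both SOCS3 identifiers in NICD as well. STAT3, the transcription factor of gp130 signalling, had 38.2 CPM in control larvae, 84.6 in HRAS larvae and 70.9 in NICD larvae, a fold of 2.22 [2.07 to 2.38] in HRAS, which was called, and of 1.86 [1.72 to 2.01] in NICD, which was not. On unique reads, 5.97% of its total, the HRAS fold was 1.62 [1.24 to 2.15] and was no longer called. The NICD fold of STAT3 on unique reads was 1.37, with an interval of 0.996 to 1.88 that includes 1. SOCS3, the feedback inhibitor of this pathway, was called for both of its identifiers, and all their reads were unique.

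The SOCS3 identifier ENSDARG00000025428 had 306 reads in control larvae, 1148 in HRAS larvae and 561 in NICD larvae, or 11.7, 27.9 and 25.4 CPM. Its folds of 2.39 [2.11 to 2.73] and 2.18 [1.89 to 2.51] were alike in size, and HRAS against NICD gave 1.1 [0.992 to 1.22]. The identifier ENSDARG00000026611 had 376, 2029 and 748 reads, with folds of 3.44 [3.08 to 3.85] in HRAS and 2.36 [2.09 to 2.68] in NICD. For this copy HRAS was above NICD, at 1.46-fold [1.34 to 1.59]. The intervals of both copies overlapped in NICD against control and did not in HRAS against control.

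The AP-1 subunits FOS and JUNB were nearly alike in HRAS and unlike in NICD. FOS had 297 reads in control larvae, 1865 in HRAS larvae and 315 in NICD larvae, and JUNB had 236, 1413 and 507. In HRAS against control the folds were 4.0 [3.54 to 4.55] for FOS and 3.81 [3.33 to 4.40] for JUNB, both called. In NICD, FOS was near its control level at 1.26 [1.07 to 1.48], while JUNB was called at 2.55-fold [2.18 to 2.99]. FOS was accordingly called in HRAS against NICD, at 3.17-fold [2.82 to 3.59], and JUNB, at 1.49-fold [1.35 to 1.66], was not. A heterodimer of a FOS and a JUN family protein is the usual form of AP-1.

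The prostaglandin synthase PTGS2, the inducible cyclooxygenase, was called in HRAS against control for both identifiers. ENSDARG00000004539 had 533 reads in control larvae, 2146 in HRAS larvae and 569 in NICD larvae, and ENSDARG00000010276 had 113, 549 and 178. The HRAS folds were 2.57 [2.34 to 2.83] and 3.09 [2.53 to 3.83], and the NICD folds of 1.27 [1.13 to 1.43] and 1.87 [1.47 to 2.39] were not called. The first copy passed 2-fold narrowly in HRAS against NICD, at 2.02 [1.84 to 2.22], and on unique reads it stood at 1.97 [1.78 to 2.20] and was not called.

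ANXA1 had the highest level per length of the 26 genes in each library. ANXA1, a phospholipid-binding protein that dampens inflammation, had a deposited RPKM of 145 in control larvae, 273 in HRAS larvae and 165 in NICD larvae, and ANXA2, a relative that links membranes to actin, had 65.6, 130 and 77.9. In HRAS against control ANXA2 stood at 1.97-fold [1.89 to 2.06] and ANXA1 at 1.87-fold [1.81 to 1.94], both just under the limit. On unique reads, 4.35% of its total, ANXA1 passed it, at 2.06-fold [1.75 to 2.45]. In NICD the folds were 1.17 [1.11 to 1.24] for ANXA2 and 1.13 [1.08 to 1.17] for ANXA1.

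The largest fold among the 26 genes in HRAS was that of tnfaip2b. Its mammalian relative TNFAIP2 was found as a gene that tumour necrosis factor induces in endothelial cells. The gene had 41 reads in control larvae, 1080 in HRAS larvae and 41 in NICD larvae, so HRAS stood apart from both other libraries. The fold was 16.6 [12.3 to 23.6] against the control and 14.0 [10.4 to 19.8] against NICD, while NICD against control gave 1.19 [0.752 to 1.88]. Of the 20873 genes tested in HRAS against control 45 (0.216%) had a ratio as high or higher. Unique reads were few, at 4, 119 and 4, and gave 17.1-fold [7.28 to 71.4] against the control.

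Both complement genes were called higher in HRAS, and cfb in NICD as well. The C3 gene c3a.1, whose product is the central protein of the complement cascade, had 10923 reads in control larvae, 41851 in HRAS larvae and 14772 in NICD larvae, which is 416, 1018 and 669 CPM. Its fold of 2.45 [2.39 to 2.50] in HRAS was called and that of 1.61 [1.57 to 1.65] in NICD was not. Complement factor B, cfb, a protease subunit of the convertase that cleaves C3, had 1579, 8621 and 3268 reads and was called in both, at 3.48-fold [3.30 to 3.68] and 2.46-fold [2.32 to 2.61]. Both genes have close copies and also 2 annotated transcripts each, and 2.24% of the c3a.1 reads and 5.10% of the cfb reads were unique. On unique reads the HRAS folds were 2.60 [2.26 to 3.02] for c3a.1 and 4.58 [3.54 to 6.09] for cfb, and the NICD folds were 1.65 [1.39 to 1.96] and 3.02 [2.26 to 4.11].

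The gene irg1l was the one called member whose highest library was NICD. It is named after the mammalian gene for the enzyme that makes itaconate, a metabolite of activated macrophages. It had 656 reads in control larvae, 2102 in HRAS larvae and 1758 in NICD larvae, and a deposited RPKM of 12.3, 25.4 and 39.7. The fold was 3.18 [2.91 to 3.49] in NICD and 2.04 [1.87 to 2.24] in HRAS, and HRAS stood at 0.642 of NICD [0.602 to 0.684]. On unique reads the HRAS fold of 1.93 [1.71 to 2.19] fell short of the limit and the NICD fold of 3.07 [2.72 to 3.49] did not. STEAP4, a metalloreductase, had 16.5, 25.1 and 27.4 CPM and was not called at 1.52-fold [1.36 to 1.70] in HRAS and 1.66-fold [1.47 to 1.88] in NICD, and none of its reads were unique.

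Over all 26 genes, 6 were called higher in both transgenic libraries: cxcl18b, both SOCS3 identifiers, JUNB, cfb and irg1l, a pattern of 1.23% of the 23330 genes with at least 20 reads. Another 8 were called in HRAS and not in NICD, among them il11a and tnfb, which had too few reads to be tested in NICD, a pattern of 4.22% of those genes. The reverse, a call in NICD and not in HRAS, held for 0 members and for 1.83% of those genes, and 12 members and 92.7% of those genes were called higher in neither. Since both comparisons share the control library, the pattern counts are a description. Of the 8, FOS, tnfaip2b and the first PTGS2 identifier also passed the size rule in HRAS against NICD, while STAT3, c3a.1, il11a, tnfb and the second PTGS2 identifier did not.

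Unique reads made up over 90% of the corrected reads for 11 genes and under 10% for 8, of which IL1RAPL1 and STEAP4 had 0. With unique reads alone 13 of 22 genes tested were called in HRAS against control, where 5.69% of all genes were called higher, and 6 of 19 in NICD against control, where 3.16% were. In HRAS against NICD 3 of 22 were called, against 4.66%. Of the members 0 were called lower on unique reads in any of the comparisons, against 4.02%, 2.91% and 5.85% of all genes. Several transcripts of 1 gene and copies elsewhere can both lower the unique share. The 11 genes over 90% were the 11 with 1 annotated transcript, and each of the others had 2 or more. The part of each in the unique share was not tested.

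**Figure D3:**
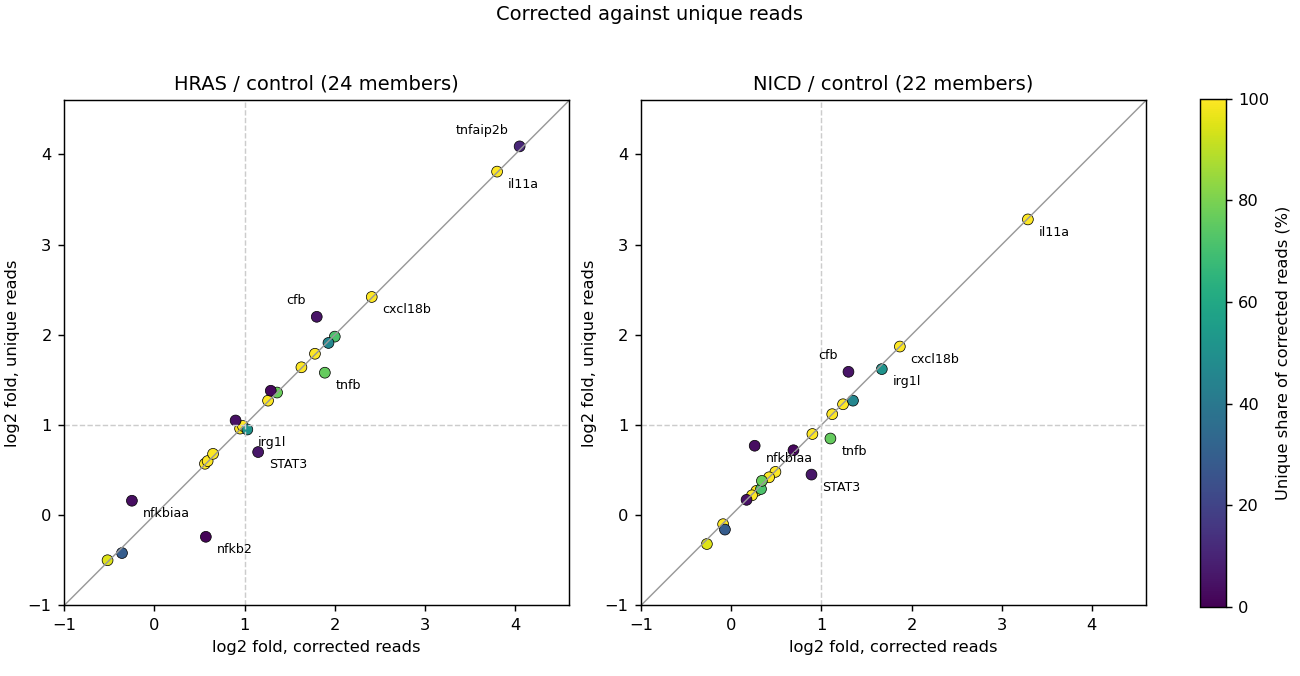
Log2 fold from corrected reads (x axis) against that from unique reads (y axis) for genes with at least 20 unique reads in the pair, coloured by the unique share of corrected reads; the diagonal marks equality and dashed lines mark 2-fold. Most points lie on the diagonal, and of those away from it STAT3, cfb, nfkbiaa and nfkb2 have a low unique share, while tnfb has one of 76.4%.

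Markers of several cell types differed between the same libraries. Of all genes tested against the control, 6.09% were called higher and 4.14% lower in HRAS, and 3.56% and 3.12% in NICD. A single call in a marker list, here or below, gives no result beside these shares. Neutrophil markers, 13 matched identifiers, summed to 142 CPM in control larvae, 567 in HRAS larvae and 263 in NICD larvae, and 7 of 10 tested were called higher in HRAS and 3 of 9 in NICD. Macrophage markers, 24 identifiers, summed to 195, 456 and 230 CPM, with 10 of 18 called higher and 0 lower in HRAS, and 1 of 16 higher and 1 lower in NICD. Pan-leukocyte markers, 16 identifiers, summed to 257, 431 and 270 CPM, with 6 of 16 and 1 of 16 higher. Markers within a list differed: among neutrophil genes npsn had a fold of 4.20 [3.86 to 4.58] in HRAS and lyz one of 1.14 [1.05 to 1.24]. The matrix protease gene MMP9, which inflamed tissue also expresses, had a fold of 11.8 [10.6 to 13.2] in HRAS and 4.09 [3.62 to 4.64] in NICD. The neutrophil chemokine receptor gene cxcr1, 1 of 2 identifiers whose names differ in case only, had 0 reads in control larvae, 48 in HRAS larvae and 6 in NICD larvae. Set against a floor of 3 control reads, its HRAS reads gave 10.2-fold. On unique reads 7 of 10 neutrophil, 6 of 13 macrophage and 3 of 9 pan-leukocyte markers were called higher in HRAS, and 4 of 9, 1 of 10 and 0 of 9 in NICD. Of all genes tested on unique reads, 5.69% were called higher in HRAS and 3.16% in NICD. In HRAS against NICD 7 of 11 neutrophil, 10 of 18 macrophage and 4 of 16 pan-leukocyte markers were called higher, against 5.15% of all genes. Among these lists 1 macrophage marker was called lower, against 6.19% of all genes. The part of leukocyte number in the values of the inflammation genes was not tested.

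Endothelium, where the driver is active, also differed. Endothelial markers, 12 identifiers, summed to 255 CPM in control larvae, 895 in HRAS larvae and 232 in NICD larvae, with 11 of 12 called higher in HRAS, and 1 higher and 1 lower in NICD. In HRAS against NICD 11 of these 12 were called higher and 1 lower. Liver markers, 15 identifiers, summed to 14526, 14045 and 13218 CPM, with 1 of 14 called higher and 1 lower in HRAS, and the same counts in NICD. The tissue source of c3a.1 and cfb, known as liver products, was not tested. Skin markers, 13 identifiers, summed to 32159, 35955 and 25874 CPM with 0 of 13 called in either transgenic library. Lymphoid markers, 9 identifiers, summed to 7.51, 9.75 and 8.47 CPM, and cd8a was at 0 in all 3 libraries. Of these markers 1 of 4 tested was called higher and 1 lower in HRAS, and 1 of 4 higher in NICD. Some markers, among them CCR9, cxcr1 and c1qa, also stand in a pathway list. The other markers at 0 were cxcr1 and a MPEG1 copy in the control, c1qc, cd4-1 and ahsg2 in HRAS, and the second identifier, CXCR1, the same MPEG1 copy, c1qb, c1qc and ZAP70 in NICD.

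Further genes of these pathways came from 9 lists of 312 symbols, which led to 256 identifiers outside the set above. Their counts stand against the shares of all genes tested, 6.09% higher and 4.14% lower in HRAS against control, and 3.56% and 3.12% in NICD against control. On unique reads these shares were 5.69% and 4.02% in HRAS, and 3.16% and 2.91% in NICD. The AP-1 and early response genes had the largest share called in HRAS against control, with 11 of 24 higher and 0 lower, and 4 of 24 higher in NICD. FOSL1, an AP-1 subunit induced by ERK, had 67 reads in control larvae, 1021 in HRAS larvae and 157 in NICD larvae, which is 9.66-fold [7.59 to 12.6] and 2.77-fold [2.08 to 3.77]. CEBPB, a transcription factor of the acute phase response, had 706, 5133 and 1587 reads and was called in both, at 4.64-fold [4.29 to 5.03] and 2.67-fold [2.44 to 2.92]. Another AP-1 subunit gene, FOSL2, was also called in both, at 3.41-fold [3.11 to 3.74] and 2.22-fold [2.0 to 2.47], as was ATF3, a stress-induced relative, at 2.71-fold [2.41 to 3.07] and 2.16-fold [1.89 to 2.47]. The early growth response gene egr2a was called in HRAS and not in NICD, at 4.40-fold [3.00 to 6.90], with 28 reads in control larvae, 196 in HRAS larvae and 23 in NICD larvae. On unique reads 11 of 24 were higher and 1 lower in HRAS, and 4 of 23 higher in NICD. The median log2 ratio of the 25 list members with at least 20 reads was 0.94 in HRAS and 0.43 in NICD.

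Cytokine and chemokine receptors had 9 of 25 called higher and 1 lower in HRAS, and 0 of 23 in NICD, with medians of 0.86 and 0.51. On unique reads 7 of 19 were higher and 1 lower in HRAS, and 0 of 18 were called in NICD. The copy of TGFBR2 with the larger ratio, a TGF-beta receptor gene, had 84, 618 and 132 reads and a fold of 4.67 [3.73 to 5.97] in HRAS. The receptor subunit gene il13ra1 had 180, 1001 and 301 reads and stood at 3.54-fold [3.03 to 4.18], and CCR9, a chemokine receptor gene, had 35, 188 and 36 reads and stood at 3.39-fold [2.38 to 5.07]. The common cytokine receptor chain gene il2rga was called on 11 control and 55 HRAS reads, at 3.08-fold [1.65 to 6.76]. The lower gene was a CXCR4 copy with 233 reads in the control and 173 in HRAS, at 0.474 [0.387 to 0.579], while the second copy had 123 and 363 reads and stood at 1.88 [1.53 to 2.33]. This single lower call is 4.0% of the receptors tested and gives no result beside the 4.14% of all genes called lower. CXCR4 is the receptor for the CXCL12 ligands described above. For il11ra, the receptor for interleukin 11, the HRAS fold was 1.24 [1.07 to 1.43] on 283 and 549 reads.

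Toll-like, interleukin 1, TNF and NF-kB signalling genes had 4 of 31 called higher and 0 lower in HRAS, and 3 of 30 higher and 0 lower in NICD. IRAK3 and bcl3, both known to restrain this pathway in mammals, were called in both libraries. IRAK3 had 12 reads in control larvae, 113 in HRAS larvae and 43 in NICD larvae, with folds of 5.80 [3.31 to 12.0] and 4.14 [2.21 to 8.88]. The IkB family gene bcl3 had 17, 140 and 61 reads, with folds of 5.12 [3.17 to 9.28] and 4.18 [2.46 to 7.79]. The adaptor gene MYD88 was called in HRAS, at 2.11-fold [1.82 to 2.45], and TNFAIP3, a deubiquitinase that inhibits NF-kB, was not, at 1.59-fold [1.33 to 1.91]. The adaptor genes TRAF2 and traf1 split, with TRAF2 called in NICD at 2.85-fold [1.87 to 4.52] and traf1 called in HRAS at 3.49-fold [1.72 to 9.0] on 8 and 46 reads. On unique reads 3 of 25 were higher in HRAS and 3 of 22 in NICD. The list medians were 0.14 and 0.10.

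JAK and STAT signalling genes had 3 of 23 called higher in HRAS and 3 of 22 in NICD, and 0 lower in both, with medians of 0.35 and 0.13. On unique reads 0 of 15 were called in HRAS and 3 of 14 were higher in NICD. No HRAS call thus remained, although genes with under 50 unique reads in the pair could not be tested. CISH, a relative of SOCS3, had 170 reads in control larvae, 555 in HRAS larvae and 338 in NICD larvae, with folds of 2.08 [1.75 to 2.49] and 2.36 [1.96 to 2.86]. SOCS1 had 38, 113 and 79 reads and was called in NICD, at 2.46-fold [1.66 to 3.74]. PTPN6, a phosphatase gene of blood cells, was called in HRAS, at 2.15-fold [1.64 to 2.87]. Interferon response genes had 3 of 13 higher in HRAS, namely irf3 at 2.05-fold [1.57 to 2.72], irf9 at 2.18-fold [1.85 to 2.59] and isg15 at 7.02-fold [3.74 to 16.6] on 9, 104 and 8 reads, and 0 of 11 higher with 1 lower, IFIH1, in NICD. On unique reads 1 of 8 interferon response genes was higher in HRAS, and 1 of 6 was higher and 0 lower in NICD, where IFIH1 had 13 control and 3 NICD reads and was not tested.

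Complement and acute phase genes had 6 of 29 called higher and 0 lower in HRAS, and 6 of 29 higher and 2 lower in NICD. Ceruloplasmin, CP, a copper-binding acute phase protein, was called in both at similar size, with 1870, 9679 and 5405 reads and folds of 3.30 [3.14 to 3.47] and 3.44 [3.26 to 3.62]. The complement gene c4b had 1058, 4567 and 2364 reads and folds of 2.75 [2.58 to 2.95] and 2.66 [2.47 to 2.86]. Factor D, cfd, the protease that activates factor B, was called in NICD, at 2.86-fold [2.61 to 3.14], with 646, 953 and 1555 reads, all unique. On unique reads 3 of 22 were higher in HRAS, and 3 of 22 higher and 2 lower in NICD. The medians were 0.27 and 0.57.

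Prostaglandin, leukotriene and annexin genes had 3 of 25 higher in HRAS, and 2 of 23 higher with 1 lower, anxa5a, in NICD. A copy of ALOX5, which makes leukotrienes, had 14, 270 and 68 reads, was called in both libraries and stood at 11.9-fold [7.21 to 22.8] in HRAS, and its partner ALOX5AP had 12, 73 and 30 reads and a fold of 3.75 [2.09 to 7.86] in HRAS. The prostaglandin D2 synthase gene ptgdsb.1 was called in HRAS, at 2.02-fold [1.95 to 2.1], and the prostaglandin receptor gene PTGER4 in NICD, at 2.02-fold [1.44 to 2.89]. On unique reads 2 of 23 of this list were higher in HRAS, and 2 of 20 higher and 1 lower in NICD. TGF-beta ligands and mediators had 2 of 15 higher in HRAS and 1 of 14 in NICD, and 2 of 13 and 1 of 10 on unique reads. The second TGF-beta 1 gene, tgfb1b, had 45, 629 and 48 reads, most of them not unique, and was 8.83-fold higher in HRAS [6.59 to 12.4], unlike tgfb1a above. Other cytokine and chemokine ligands had 1 of 11 higher in HRAS and 1 of 10 in NICD, in both cases ccl34a.4, with 48, 399 and 96 reads. On unique reads they had 1 of 10 higher in HRAS and 0 of 8 in NICD, where ccl34a.4 had under 50 reads in the pair. Over all 9 lists 42 of 196 genes were called higher and 1 lower in HRAS, and 20 of 186 higher and 4 lower in NICD. These are 21.4% and 0.51% in HRAS and 10.8% and 2.15% in NICD. With a single call each, the ligands in HRAS and in NICD and the TGF-beta genes in NICD give no result beside the share of all genes. The same holds for the single lower calls of the receptors in HRAS and of the interferon and prostaglandin lists in NICD.

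HRAS against NICD gave 17 of 201 pathway genes higher (8.46%) and 5 lower (2.49%), against 5.15% and 6.19% of all genes tested. The AP-1 and early response genes had 5 of 24 higher, the TGF-beta genes 3 of 15 and the other ligands 2 of 11. Interferon response genes had 2 of 13 higher, the receptors 3 of 27 and the prostaglandin list 2 of 26. Each of these lists had 0 lower. Complement and acute phase genes had 0 of 31 higher and 2 lower, and JAK and STAT genes 0 of 23 and 2. The Toll-like list had 0 of 31 higher and 1 lower. On unique reads 18 of 159 pathway genes were higher and 4 lower, against 4.66% and 5.85% of all genes. Of the genes named above, tgfb1b stood at 6.97-fold [5.24 to 9.64], egr2a at 4.49-fold [2.96 to 7.39] and FOSL1 at 3.48-fold [2.95 to 4.16]. FOSB, an AP-1 subunit gene, stood at 3.23-fold [2.41 to 4.48], and IFIH1, a sensor of viral RNA, at 4.28-fold [2.52 to 8.32]. Among those lower in HRAS were TRAF2, at 0.423 of NICD [0.295 to 0.602], PIAS1, at 0.463 [0.351 to 0.610], cfd, at 0.329 [0.303 to 0.357], and the C-reactive protein relative crp2, on 7 and 46 reads.

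**Figure D4:**
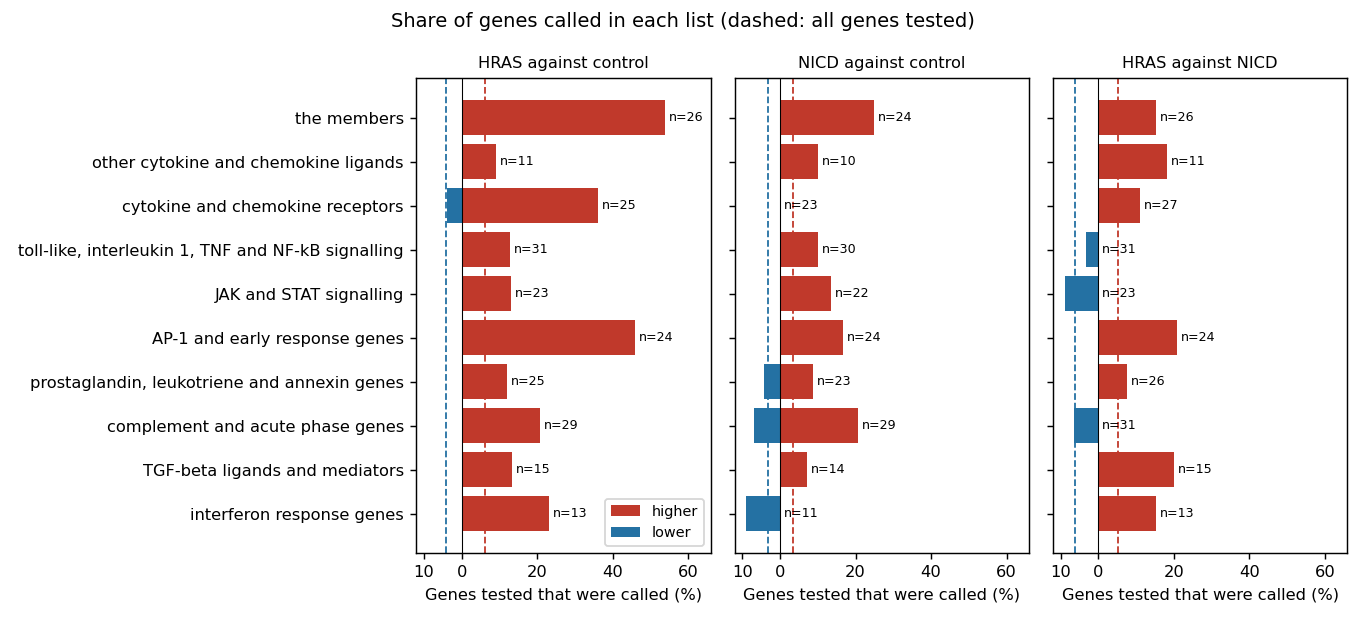
Share of tested genes called higher (red, right of 0) and lower (blue, left of 0) in each comparison, for the 26 genes described and the 9 pathway lists, with n the number tested; dashed lines give the share over all genes tested. In HRAS against control the described genes stand at 53.8% and the AP-1 and early response genes come next, while in NICD against control 6 of the 24 described genes tested are called.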

How the data were processed

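Messenger RNA libraries were made from 10 ug of Trizol-extracted total RNA with an Illumina TruSeq kit, per the labels' protocols. Per the series' design text, HiSeq 2000 reads were analysed by the authors with CLC bio Assembly Cell 3.2 and Ensembl release 63 cDNAs of Zv9, and the submitters' processing notes name CASAVA 1.8. The sources used here give neither mapping parameters nor strand. Per the file headers, the tables hold read counts (unique and total), RPKM, and a corrected total, which is an expected count. All were deposited as made by the authors.

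Names came from a table that covers 19635 identifiers (70.4%). No genome of the build and no sequence table was used, so positions and sequences are left out and the planned motif search in promoters was not run. TMM factors scaled the corrected reads (edgeR 4.0.16, R 4.3.3), and 0.5 reads were added per library to form ratios. Intervals were computed with scipy 1.17.1 from the reads without this addition. With 1 library per group no test was run. Alternatives were other scalings (DESeq2 1.42.0 among them), unique reads, RPKM, other minimums, 5 reads added and other fold limits. The members, lists and rules were chosen with earlier results of these data known. Genes to name were every member with 20 reads and, from each list, up to 4 called genes of largest ratio per comparison, of which the text gives most pathway genes and few markers; other genes named (among them TNFAIP3, il11ra, CXCR4, lyz, krt4 and fabp10a) were chosen after their values were seen. Some genes that the rule names are not reported here.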

Additional observations from a re-analysis of the deposited data

How the results depend on the processing

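Total reads, DESeq2 size factors, upper quartile scaling, totals without the 20 most abundant genes and the deposited RPKM left each count of called genes as reported and each log2 ratio on its side of the size rule. With 5 reads added, ccl19a.1 was no longer called in HRAS against NICD. With no minimum of reads, tnfa made 1 gene lower in HRAS than in NICD, and 15 genes were higher in HRAS against control and 9 in NICD against control, where a minimum of 10 reads gave 8. At a 1.5-fold limit 20 genes were higher in HRAS against control and 11 in NICD against control, and 9 were higher and 2 lower in HRAS against NICD. At a 4-fold limit the higher genes numbered 4 in HRAS against control, 0 in NICD against control and 1 in HRAS against NICD. The shares of all genes called at these other minimums and limits are not given here, so these counts describe the list only. By ratio alone, without the interval, 13.3% of all genes tested reached 1.51-fold in HRAS against control and 10.6% in NICD against control. In HRAS against control 1.39% reached 4.0-fold. Leaving out capital names gave 7, 3 and 2 higher among the 14 genes left. Of these, tnfb and il11a were not tested in NICD against control. The size rule stayed the same here, so the shares of all genes called higher remained 6.09%, 3.56% and 5.15%. On unique reads STAT3 and irg1l lost their call in HRAS against control and a PTGS2 identifier in HRAS against NICD, and ANXA1 gained one in HRAS against control. No paired analysis was possible because each group held 1 library, and for the same reason no library could be left out. Depth limits tnfa, tnfb, il11a, il11b, IL10 and ccl19a.1, which had under 100 reads in each library.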

Other observations

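Identifiers related to the described genes but outside their rule, chosen after the name table was seen, gave these values. Among them c3a.2, c3a.3, c3b.1 and c3b.2 also stand in the complement and acute phase list above and were already counted there. A gene named SAA2, of the serum amyloid A family of acute phase proteins, had 2 reads in control larvae, 7 in HRAS larvae and 1 in NICD larvae. The C3 copy c3a.3, whose reads were mostly unique, had 1476 reads in control larvae, 10094 in HRAS larvae and 2860 in NICD larvae, with folds of 4.36 [4.13 to 4.61] and 2.30 [2.16 to 2.46]. In c3a.2 the order was another, with 271, 1162 and 1105 reads and folds of 2.73 [2.40 to 3.14] in HRAS and 4.84 [4.24 to 5.56] in NICD. Only 6, 9 and 39 of these c3a.2 reads were unique, under the 50 per pair that the size rule needs. Its folds thus rest on reads that match several transcripts and could not be checked on unique reads. The copy c3a.4 had 14, 167 and 14 reads, all unique, and stood at 7.37-fold [4.41 to 14.2] in HRAS against control and 6.20-fold [3.71 to 12.0] against NICD. The more distant copy c3b.1 stood below the control in both, at 0.785 [0.738 to 0.835] and 0.746 [0.692 to 0.803]. Its relative c3b.2 went the other way, at 1.3 [1.19 to 1.42] in HRAS and 1.92 [1.75 to 2.11] in NICD. Neither c3b copy was called. The gene tnfaip2a, a relative of tnfaip2b, was not called either, at 1.36-fold in HRAS and 1.16-fold in NICD against the control. The factor B relative cfbl had 101, 551 and 139 reads and a fold of 3.47 [2.81 to 4.35] in HRAS. Another C3 copy, c3a.6, was called in HRAS at 3.22-fold [2.83 to 3.68]. The identifiers c3a.5, ccl19b, anxa2b, CXCL14 and REL were not called in any comparison, and ccl19a.2 had 2, 0 and 0 reads. Of these, anxa2b, CXCL14 and REL also stand in the pathway lists. In HRAS against control anxa2b stood at 0.905 [0.824 to 0.995], where ANXA2 stood at 1.97. The authors' corrected counts add a share of reads that match several transcripts, whether of the same gene or of different copies. How many were shared between copies was not tested, so values of single copies with few unique reads are uncertain.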
